A study of Mus musculus with 21 samples.

Results

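Late changes in FcMR-treated macrophages were read from 6 of the 21 libraries of the series, 3 taken after 24 h and 3 after 12 h of treatment. They were chosen by sample title, without reference to any measured value, and every gene of the table was compared. The cells were bone-marrow-derived macrophages of C57BL/6J mice, grown in medium with conditioned supernatant containing GM-CSF, a myeloid growth factor. By the series' design text they lacked the mannose receptor, and this deficiency was shared by treated and control cells alike. FcMR is a fusion of the Fc region of human IgG1 with the extracellular region of the mannose receptor. The other groups, with 3 libraries each, were untreated cells at 0 h, FcMR at 4 h, and an isotype control protein at 4, 12 and 24 h. The age of the mice, the number of animals and whether replicates came from separate cultures are not given in the sources used here. The p-values thus measure only the spread between libraries, which may be technical. Unless stated otherwise, that spread was estimated jointly over all 21 libraries of the 7 groups, not from the 6 libraries compared.

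The mannose receptor is a C-type lectin of macrophages and some endothelia that binds and internalises mannosylated glycoproteins, and its extracellular part can be shed into the circulation. Activated macrophages pass through waves of transcription: cytokine genes and their feedback inhibitors driven by NF-kB come first, and interferon-stimulated genes follow. Later, transcripts of cytokines decay under the action of inhibitors, while genes of metabolism, lipid handling, tissue remodelling and migration change. The step from 12 to 24 h falls in this late phase.

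Mrc1, which encodes the mannose receptor, had 5, 4 and 1 counts in the FcMR libraries of 12 h and 0, 4 and 2 in those of 24 h, and it did not pass the filter on low counts. The 6 libraries held 7951434 to 26310320 counts, and 3 counts correspond to 0.114 to 0.377 CPM of the raw total. All other CPM values (counts scaled to library size) include the TMM factors. FcMR 12 h replicate 1 stood apart from its group in the balance of GC-rich and GC-poor genes, with a GC tilt (log2 level of genes with at least 57.3% GC minus that of genes with at most 40.8%, against all libraries) of −0.722, where replicates 2 and 3 had 0.722 and 0.8. The 24 h libraries had tilts of −0.378, −1.3 and 0.398. FcMR 12 h replicate 1 also stands in the place of isotype 4 h replicate 3 in the order of the titles' library numbers, and the reverse. Slc1a2 and Acsl1 went with the labels. Slc1a2 was at 106 CPM in FcMR 12 h replicate 1, with 105 and 111 in its group. In isotype 4 h replicate 3 it was at 5.10 CPM, with 4.45 and 3.43 in that group. Acsl1 was at 1480 and 296 CPM. Socs1 and Hspa1a stood apart from their groups in both libraries. Socs1 was at 12.2 CPM (45.1 and 44.5 in its group) and 21.3 CPM (6.18 and 3.79). Isotype 4 h replicate 3 had a GC tilt of 0.641, where its group had −0.825 and −1.58. Whether the labels were exchanged was not tested. Several results in which FcMR 12 h replicate 1 stood apart are given with and without it.

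Of 13468 genes that passed the filter, 3203 changed between 12 and 24 h (23.8%, edgeR's quasi-likelihood test at a Benjamini-Hochberg adjusted p under 0.05). Of these, 1503 were higher at 24 h (11.2%) and 1700 lower (12.6%), and 932 changed by more than 2-fold (6.92%), 343 upwards and 589 downwards. The 3 and 3 libraries did not overlap for 4006 genes (29.7%). The median log2 fold change of all genes was −0.04. Without FcMR 12 h replicate 1, 4276 genes were called, without replicate 2 of that group 1988, and without its replicate 3 2099. A fit of the 6 libraries alone called 1046 genes. In each of these fits every call shared with the first had the same direction.

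The 12 protein-coding genes that rose most spanned transport, detoxification and signalling. Mgst2, a microsomal glutathione transferase that also makes leukotriene C4, was at 8.44, 8.21 and 6.41 CPM at 12 h and at 79.3, 77.5 and 83.5 CPM at 24 h. Each 24 h library thus stood far above each 12 h library, a 10.5-fold rise (log2 fold change 3.39, SE 0.11, edgeR adjusted p 4.48e-12). Slc36a2, a proton-coupled amino acid transporter, was at 0.147, 0.437 and 0.680 CPM at 12 h, near the limit of detection, and at 5.14, 3.97 and 7.92 CPM at 24 h (log2 fold change 3.61, SE 0.42, edgeR adjusted p 9.48e-06). C1s1, which encodes the complement protease C1s, went from 4.26, 1.92 and 2.62 CPM to 30.2, 32.3 and 24.9 CPM (log2 fold change 3.31, SE 0.28, edgeR adjusted p 3.52e-07). The groups were again fully apart. S1pr1, the receptor for sphingosine 1-phosphate that guides leukocyte exit from tissue, rose from 3.45, 2.36 and 2.87 CPM to 26.1, 24.0 and 24.9 CPM (log2 fold change 3.10, SE 0.23, edgeR adjusted p 6.02e-08). Ly6a, an interferon-responsive surface protein also known as Sca-1, was at 29.1, 21 and 21.8 CPM and then at 154, 159.5 and 152 CPM, a 6.47-fold rise. Vegfa, the angiogenic growth factor, rose 5.56-fold, from 5.65, 8.64 and 8.55 CPM to 40.3, 33.3 and 54.5 CPM (log2 fold change 2.48, SE 0.26, edgeR adjusted p 2.79e-06). The other 6 were Gsta1 (a cytosolic glutathione transferase), Hepacam2, Ctla2b, Edil3 (a bridging protein for apoptotic cells), Nt5e (CD73, which makes adenosine) and Clec9a (a lectin for damaged cells), with log2 fold changes of 3.01 to 2.35. At 24 h Vegfa, Hepacam2 and Nt5e, with means of 42.7, 3.57 and 8.11 CPM, lay under untreated cells (115, 36.5 and 23.6 CPM). The means of the other genes of the 12 lay above those of untreated cells. C1s1, Gsta1, Ctla2b and Ly6a have close paralogs. Mgst2, C1s1, Ctla2b and Clec9a overlap another annotated gene. Part of the counts of genes of either kind could thus belong to a neighbour or copy. In GRCm38 Mgst2 (ENSMUSG00000074604.9) lies at chr3:51660360-51682677, C1s1 (ENSMUSG00000038521.17) at chr6:124530345-124542359 and Vegfa (ENSMUSG00000023951.17) at chr17:46016993-46032369.

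The 12 genes that fell most included cytokines, heat shock proteins and a feedback inhibitor. Csf3, the neutrophil growth factor G-CSF, had 25, 21 and 39 counts at 12 h and 0, 3 and 1 at 24 h, a ratio of 21.1 scaled to library size (95% interval 7.93 to 79.1, counting error only). Lipg, endothelial lipase, had 23, 30 and 31 counts and then 0, 1 and 2, a ratio of 27.8 (95% interval 9.18 to 137). Both genes were thus near the floor of detection at 24 h. Clic5, a chloride channel family member tied to the cytoskeleton, fell from 24.9, 22.1 and 18.4 CPM to 1.44, 1.54 and 0.731 CPM (log2 fold change −4.06, SE 0.28, edgeR adjusted p 2.82e-08). Rnf225, a RING finger protein, went from 13.4, 11.7 and 11.8 CPM to 0.308, 0.661 and 0.731 CPM (log2 fold change −4.38, SE 0.31, edgeR adjusted p 4.91e-08). Il27, the p28 subunit of interleukin 27, went from 6.53, 13.8 and 11.8 CPM to 1.13, 1.03 and 0.731 CPM (log2 fold change −3.43, SE 0.41, edgeR adjusted p 1.06e-05). Shisa3 and Serpina3f fell by 3.44 and 3.11 on the log2 scale.

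Some of these decreases differed in size after a correction for GC content, and the part of the library balance in them was not tested. Socs1, which blocks JAK kinases, was at 12.2, 45.1 and 44.5 CPM at 12 h and 3.29, 2.87 and 4.63 CPM at 24 h. FcMR 12 h replicate 1 lay between the other 12 h libraries and the 24 h libraries. Its log2 fold change was −3.28 (SE 0.56, edgeR adjusted p 0.00041), −3.66 without that replicate and −2.52 after GC correction. Hspa1a and Hspa1b, the inducible HSP70 pair, fell by 3.43 and 3.34 on the log2 scale. After GC correction the values were −2.56 and −2.62, and without FcMR 12 h replicate 1 they were −3.84 and −3.67. Hspa1a and Hspa1b are near-identical copies whose reads cannot be assigned with certainty. Ppfia3, a synaptic scaffold protein, had −4.32, GC-corrected −3.31, and −4.72 without FcMR 12 h replicate 1. Gm45234 had the lowest value of these 12 genes, −4.94 (SE 1.60), with 1.17, 19.4 and 17.6 CPM at 12 h and 0, 0.514 and 0.610 CPM at 24 h. It overlaps Atn1 and other genes on its strand, and its call was lost without 5 of the 6 single libraries, all but FcMR 12 h replicate 1 (edgeR adjusted p 0.0568 to 0.112), so it is uncertain.

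**Figure D1:**
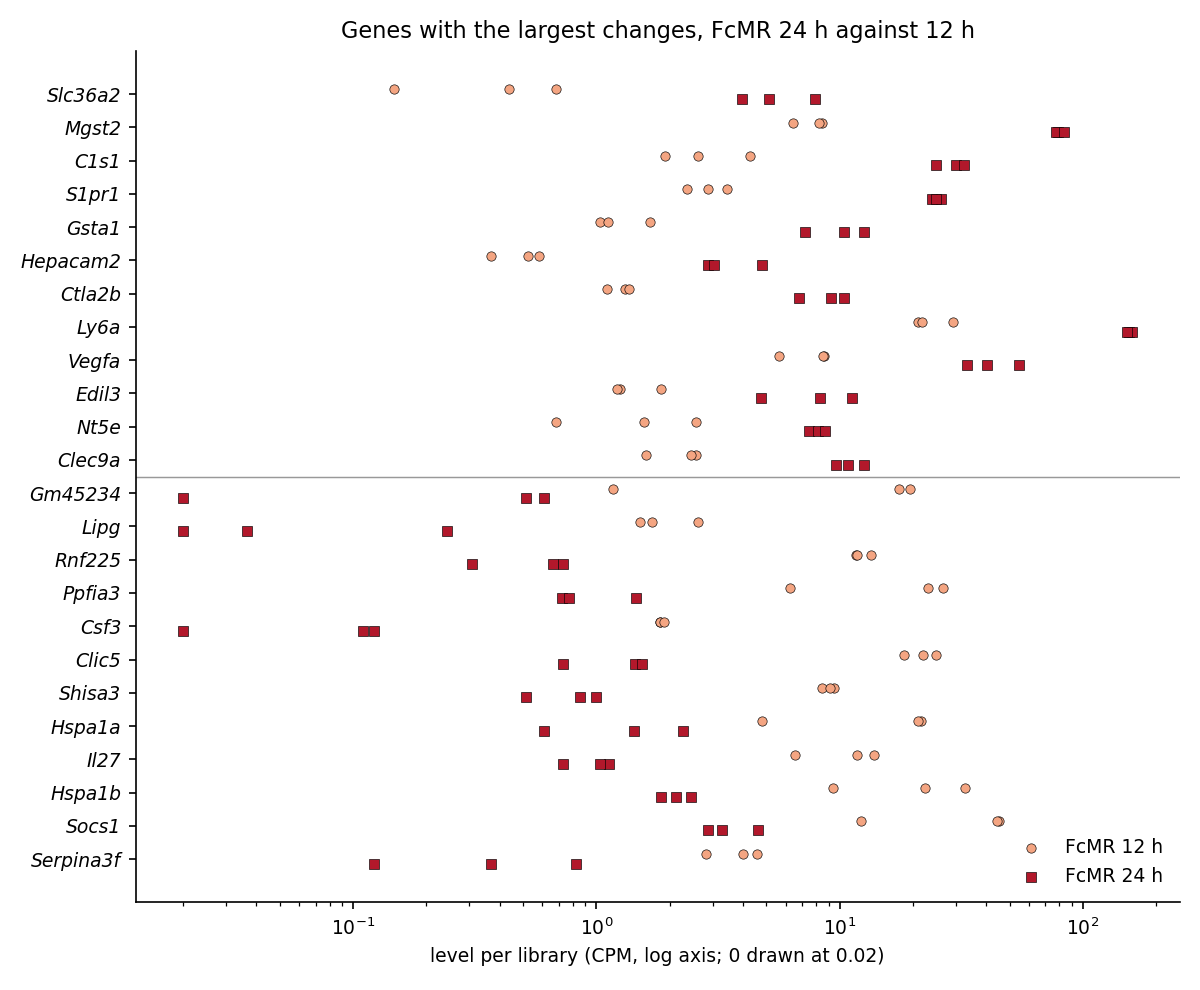
Levels of the 24 genes named for their fold change, 12 that rose and 12 that fell. The x axis gives CPM per library on a log scale, with 0 drawn at 0.02. Circles are the FcMR 12 h and squares the FcMR 24 h libraries, and for each gene the 3 squares lie on one side of the 3 circles, as the rule for naming these genes required.

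Inflammatory cytokine and chemokine genes fell together. Of 26 listed genes tested, 21 were called lower and 0 higher, against 12.6% and 11.2% of all genes, with a list median of −1.73 against −0.04 for all genes. Tnf (ENSMUSG00000024401.14, GRCm38 chr17:35199381-35202007), the early macrophage cytokine, was at 482, 511 and 462 CPM at 12 h and 60.3, 69.3 and 73.8 CPM at 24 h, a 7.15-fold drop with no overlap (log2 fold change −2.84, SE 0.11, edgeR adjusted p 3.29e-11). Its mean at 24 h, 67.8 CPM, lay under the 160.3 CPM of untreated cells, after 5790 CPM at 4 h of FcMR. Il6 was at 254, 202 and 176 CPM and then at 55.9, 93.9 and 47.1 CPM (log2 fold change −1.67, SE 0.22, edgeR adjusted p 3.07e-05), still above the 2.81 CPM of untreated cells. Il10, the anti-inflammatory cytokine, went from 12.7, 9.25 and 9.42 CPM to 2.36, 1.58 and 1.10 CPM, a drop of 2.63 on the log2 scale. Il12b, the shared p40 subunit of interleukins 12 and 23, fell by 1.05, from 1176, 1072 and 884 CPM to 479.8, 616 and 419 CPM.

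Members of the list differed in how far they fell. Among chemokines, Cxcl10, an interferon-inducible attractant of T cells, went from 180.4, 171 and 134 CPM to 20.9, 18.4 and 18 CPM, and Ccl4 and Ccl3 fell by 2.61 and 2.40 on the log2 scale. Ccl2, the monocyte attractant, went from 62.6, 55.8 and 41.9 CPM to 17.4, 18.2 and 12.3 CPM (log2 fold change −1.73, SE 0.26, edgeR adjusted p 0.000114). Il1b did not pass: it was at 2865, 2256 and 2062 CPM and then at 1891, 2134 and 1664 CPM, with overlapping groups (log2 fold change −0.34, SE 0.14, edgeR adjusted p 0.0929). With GC correction it was called lower (−0.40, edgeR adjusted p 0.00449). It overlaps an antisense gene, from which libraries that do not mark strand cannot tell it apart. Csf2, Ccl5, Cxcl16 and Lif also did not pass, and Csf2 had 7 counts in all at 12 h and 1 at 24 h. Without FcMR 12 h replicate 1, 21 of the 26 were again called lower, and the list median lay between −1.83 and −1.56 over all alternatives run.

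The promoter of Cxcl10 is printed as an example of the called members, which moved together. It is taken from RefSeq (build GRCm38.p6, chr5:92348840-92349139, minus strand) and runs from 250 bases before to 50 after the annotated start. Capitals mark matches to GGG and CC with 5 free bases between them, a loose form of the site that NF-kB dimers bind, read on both strands. The window holds 3 matches, of which a pair overlaps, and it also has 1 match to the interferon element described further on, not capitalised here.
Cxcl10: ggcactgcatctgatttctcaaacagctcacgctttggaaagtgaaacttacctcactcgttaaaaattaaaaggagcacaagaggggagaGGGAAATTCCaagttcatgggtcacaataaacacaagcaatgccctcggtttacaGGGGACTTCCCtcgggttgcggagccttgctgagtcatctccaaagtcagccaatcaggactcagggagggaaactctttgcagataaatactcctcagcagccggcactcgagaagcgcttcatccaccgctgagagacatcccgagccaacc
Of the 21 called genes 14 had a promoter in the table, and 10 of these held the motif (71.4%), against 53.5% of all 27025 genes with a promoter. A loose motif of this kind is common, and a match describes letters only.

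Genes of the NF-kB system itself were lower too. Of 20 tested, 14 were called lower and 0 higher, against 12.6% and 11.2% of all genes, with a median of −1.0. Nfkbia, which encodes the inhibitor IkB-alpha, was at 336, 432 and 417 CPM at 12 h and at 164, 157 and 196 CPM at 24 h (log2 fold change −1.20, SE 0.17, edgeR adjusted p 8.47e-05). Tnfaip3, the ubiquitin-editing inhibitor A20, went from 489.7, 492 and 473 CPM to 227, 256 and 259 CPM, a drop of 0.97 on the log2 scale. Socs3, an inhibitor of IL-6 family signalling, went from 114, 208 and 208 CPM to 43.9, 39.1 and 70.8 CPM and fell by 1.8, where the GC-corrected value was −1.22. The subunit genes Nfkb1 and Nfkb2 fell by 0.98 and 1.33, and Rel, with 0.38, did not pass. The list median was −0.67 after GC correction, with 17 called lower and 1 higher. Without FcMR 12 h replicate 1, 16 were called lower and 1 higher, and without replicate 2 or replicate 3 of that group 9 were called lower. In the fit of the 6 libraries alone 7 were called lower.

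Of the 20 lists, that of interferon-stimulated genes had the largest share of members called. All 30 listed genes had a log2 fold change below 0. Of them 27 were called lower and 0 higher, against 12.6% and 11.2% of all genes. The libraries did not overlap for 28, against 29.7% of all genes in either direction. The median was −1.05. Gbp5, a guanylate-binding protein of the inflammasome and vacuole defence, was at 880.1, 725 and 688 CPM at 12 h and at 160.4, 219 and 129.7 CPM at 24 h, a 4.50-fold drop (log2 fold change −2.17, SE 0.17, edgeR adjusted p 1.41e-07). Rsad2, the antiviral enzyme viperin, went from 1991, 1565 and 1338 CPM to 485, 599 and 353 CPM, and Ifit1, which binds foreign RNA caps, from 1184, 928 and 905 CPM to 319.7, 402 and 239.6 CPM. They fell by 1.77 and 1.65 on the log2 scale. Isg15, a ubiquitin-like modifier, likewise fell by 1.65.

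Irf9, a transcription factor of the pathway, fell by 0.36. Irf7, Oas3 and Bst2 did not pass, with log2 fold changes of −0.63, −0.61 and −0.77. The mean log2 CPM of the list was 8.35 to 8.45 in the 12 h and 7.18 to 7.33 in the 24 h libraries, against 3.80 to 4.29 in untreated cells. Ifit and Gbp genes lie in families of similar sequence, which makes the split of counts among them less certain.

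The promoter of Gbp5, the member that fell most, is printed from RefSeq (build GRCm38.p6, chr3:142496684-142496983, plus strand). Capitals mark its 1 match to a pair of TTTC with 2 free bases between them, the core of the interferon-stimulated response element, read on both strands. This motif was added after the data had been seen.
Gbp5: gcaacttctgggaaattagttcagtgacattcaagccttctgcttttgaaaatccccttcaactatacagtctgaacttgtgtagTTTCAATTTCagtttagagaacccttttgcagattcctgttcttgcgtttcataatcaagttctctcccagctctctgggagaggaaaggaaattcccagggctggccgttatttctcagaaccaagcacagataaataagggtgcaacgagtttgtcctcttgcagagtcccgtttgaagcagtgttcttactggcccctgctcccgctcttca
Of the 27 called genes 19 had a promoter in the table, and 12 of them held the motif (63.2%), against 3.99% of all genes.

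Immediate-early genes of the AP-1 and EGR families moved in both directions. Of 20 tested, 4 were called higher and 3 lower, against 11.2% and 12.6% of all genes. Fos was at 6.24, 9.95 and 8.60 CPM at 12 h and at 19.6, 17.1 and 21.1 CPM at 24 h (log2 fold change 1.22, SE 0.18, edgeR adjusted p 8.18e-05), and Egr1 went from 4.62, 6.37 and 5.59 CPM to 10.5, 10.9 and 12.3 CPM, a rise of 1.02 (1.54 after GC correction). At 24 h the means of Fos and Egr1, 19.3 and 11.2 CPM, lay under the 23.7 and 21.9 CPM of untreated cells. Fosl2 and Dusp6, a phosphatase of ERK, rose by 0.44 and 0.68. Dusp2, a nuclear MAP kinase phosphatase, fell by 1.82, from 11.1, 20.1 and 16.2 CPM to 4.32, 4.12 and 5.12 CPM, and its GC-corrected value was −1.11. Ier3 and Maff were the other called decreases. That of Ier3 (−0.98) was lost without FcMR 12 h replicate 2 or 3 or FcMR 24 h replicate 1 or 2. Junb, at 13.6, 156 and 177 CPM and then 13.5, 9.26 and 29.7 CPM, was not called (log2 fold change −2.77, SE 1.0, edgeR adjusted p 0.0544), and FcMR 12 h replicate 1 lay among the 24 h libraries. The median of this list was −0.25, and 0.15 after GC correction. Its count of called decreases was 6 without FcMR 12 h replicate 1 and 1 without FcMR 12 h replicate 2 or FcMR 24 h replicate 1 or 2.

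**Figure D2:**
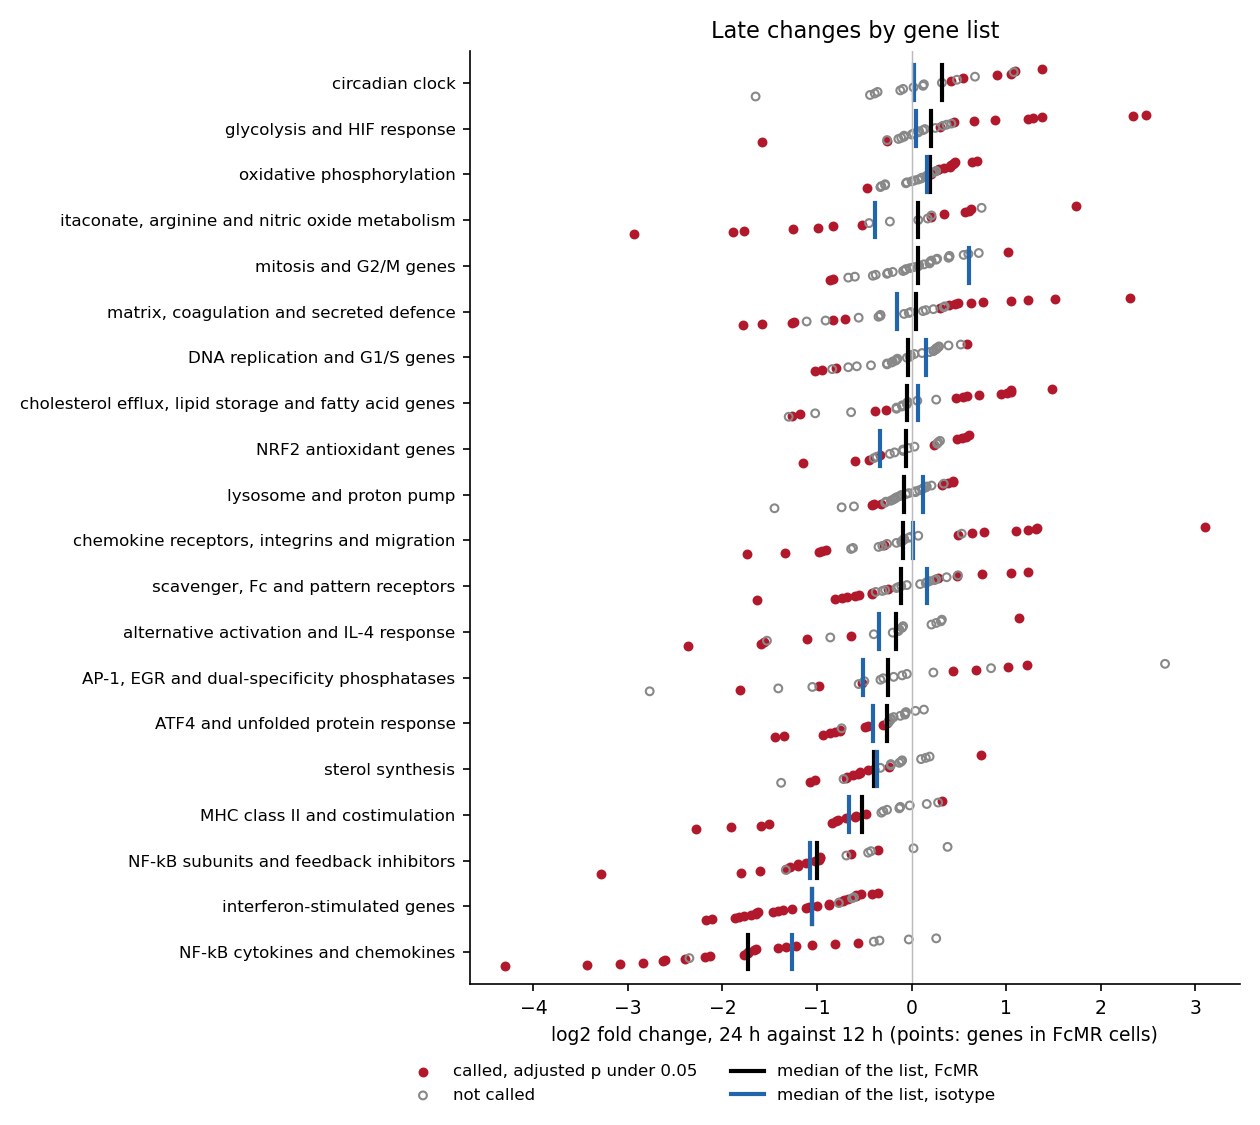
Log2 fold change from 12 to 24 h in FcMR cells for the tested members of 20 gene lists, ordered by median. Filled points are called genes, open points are not, black bars are the list medians in FcMR cells and blue bars those in isotype cells. The 3 lists at the bottom have medians of −1.73, −1.05 and −1.0, while medians of the others lie between −0.53 and 0.32.

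Genes of glycolysis and of the response to hypoxia-inducible factor rose in part. Of 26 tested, 9 were called higher and 2 lower, against 11.2% and 12.6% of all genes. The decreases were 0 without replicate 2 of either time. The median was 0.20, but 0.09 without FcMR 12 h replicate 1, 0.38 without FcMR 24 h replicate 2 and 0.00 without FcMR 24 h replicate 3, and most of the called rises were targets of the factor other than glycolytic enzymes. Besides Vegfa, Ankrd37 went from 1.25, 1.40 and 1.65 CPM to 5.55, 6.47 and 10.1 CPM (log2 fold change 2.34, SE 0.32, edgeR adjusted p 5.52e-05). Pdk1, which keeps pyruvate out of mitochondria, went from 9.83, 12.1 and 13.3 CPM to 32.1, 27.4 and 32.4 CPM, a rise of 1.38. Egln3, an oxygen-sensing prolyl hydroxylase, rose by 1.28, and Bnip3, a mitophagy receptor, by 1.23. Hif1a itself was at 361, 264 and 268 CPM and then at 442, 574 and 395 CPM, a rise of 0.66 with no overlap. Among enzymes, Tpi1 and Pgk1 rose by 0.88 and 0.45, while Ldha, with 0.37, and the glucose transporter gene Slc2a1, with 0.08, did not pass. Adm, adrenomedullin, was the exception among targets, at under 1.2 CPM in every library of the 6 and with a log2 fold change of −1.58 whose call was lost without any single library other than FcMR 12 h replicate 1. Oxygen and medium at harvest are not given in the sources used here.

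The promoter of Ankrd37, the member with the second-highest rise, is printed from RefSeq (build GRCm38.p6, chr8:45999801-46000100, minus strand). Capitals mark 2 matches to ACGTG, the core bound by hypoxia-inducible factor, read on both strands; this motif too was added after the data had been seen.
Ankrd37: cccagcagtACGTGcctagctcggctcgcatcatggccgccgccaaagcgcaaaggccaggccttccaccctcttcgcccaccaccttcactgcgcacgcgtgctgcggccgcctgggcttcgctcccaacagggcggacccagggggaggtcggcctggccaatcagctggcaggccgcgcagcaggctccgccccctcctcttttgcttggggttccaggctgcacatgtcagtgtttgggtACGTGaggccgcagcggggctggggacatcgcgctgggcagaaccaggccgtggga
All 11 called genes of the list had a promoter in the table, and 7 of them held the motif (63.6%), against 21.8% of all genes. Ankrd37 overlaps Lrp2bp and Ufsp2 on the other strand.

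Of 30 respiratory chain genes tested, 12 were called higher, against 11.2% of all genes, and 1 lower, with a median of 0.19 and 8 members below 0. In the fit of the 6 libraries alone 4 were called higher. Ndufa4 went from 36.7, 29.2 and 27.7 CPM to 49.3, 49.1 and 52.9 CPM and Uqcrh, of complex III, from 115, 92.0 and 92.1 CPM to 153, 174 and 137 CPM, rises of 0.69 and 0.64 on the log2 scale. Leaving out FcMR 12 h replicate 2 or FcMR 24 h replicate 1 left 7 called higher in each case. The decrease of Cycs, cytochrome c, by 0.47 was lost under 10 of the alternatives run, among them 4 that left out 1 library.

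Nitric oxide, itaconate and arginine genes moved in both directions, 6 higher and 7 lower of 19 tested, against 11.2% and 12.6% of all genes. Nos2, the inducible nitric oxide synthase, was at 67.7, 85.0 and 70.6 CPM and then at 24.2, 19.3 and 16.8 CPM (log2 fold change −1.89, SE 0.24, edgeR adjusted p 2.03e-05). Acod1, which makes itaconate, went from 4809, 4665 and 4662 CPM to 2483, 2260 and 2374 CPM, a 1.99-fold drop with narrow spread (SE 0.0899, edgeR adjusted p 6.49e-07). Hdc, which makes histamine, and Ptgs2, which makes prostaglandin precursors, fell by 2.94 and 1.77. Arg1, arginase 1, which competes with nitric oxide synthase for arginine, went from 0.954, 1.40 and 0.971 CPM to 4.52, 3.16 and 3.41 CPM, a rise of 1.74 from a low level (edgeR adjusted p 0.00272). After thinning its value was 0.98 and the call was lost (edgeR adjusted p 0.335). Sat1 and Idh1 rose by 0.63 and 0.61, and Ass1, which rebuilds arginine, by 0.34. Without FcMR 24 h replicate 1, 3 were called higher, and without FcMR 12 h replicate 2 or 3 it was 4.

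Of 25 genes of cholesterol efflux, lipid storage and fatty acid handling, 9 were called higher and 4 lower. The shares over all genes were 11.2% and 12.6%, and the list median was −0.05. Hilpda, a lipid droplet protein that inhibits lipolysis, went from 12.7, 12.0 and 11.5 CPM to 34.8, 31.3 and 34.9 CPM (log2 fold change 1.48, SE 0.12, edgeR adjusted p 2.04e-07). Scd1, stearoyl-CoA desaturase, went from 50.7, 43.6 and 47.7 CPM to 96.6, 95.0 and 103 CPM, and Abca1, the cholesterol exporter, from 397, 350.4 and 382 CPM to 744, 797 and 799 CPM. Both rose by 1.05 on the log2 scale. Dgat2, which makes triglyceride, rose by 1.01. Nr1h3, the oxysterol receptor LXR-alpha, fell by 1.18, from 42.1, 67.9 and 70.0 CPM to 28.7, 17.1 and 34.6 CPM. Its value was −1.36 without FcMR 12 h replicate 1 and −0.79 after GC correction. The decrease of Fasn, by 1.27 (−0.78 after GC correction), was lost without FcMR 12 h replicate 2 or 3 and without FcMR 24 h replicate 1 or 2, and under each of these 2 genes of the list were called lower.

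Of 23 sterol synthesis genes tested, 11 were called lower and 1 higher, against 12.6% and 11.2% of all genes, with a median of −0.40. Idi1, which isomerises isopentenyl diphosphate, fell by 0.68. The call for Srebf2, the regulator of the pathway (−1.02, edgeR adjusted p 0.0494, and −0.50 after GC correction), was lost under 9 alternatives. Dhcr7 rose, by 0.73, from 21.1, 27.4 and 26.8 CPM to 42.1, 32.3 and 50.8 CPM. In the fit of the 6 libraries alone 2 of the 23 genes were called lower, and without FcMR 12 h replicate 3 it was 7.

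Stress genes were read in a pair of lists. The NRF2 antioxidant list had 5 of 20 called higher and 4 lower, against 11.2% and 12.6% of all genes. The count called lower was 1 without FcMR 12 h replicate 3 or FcMR 24 h replicate 1. It was 2 without replicate 2 of either group. In the fit of the 6 libraries alone 1 gene of the list was called higher and 0 lower. G6pdx, the first enzyme of the pentose phosphate pathway, went from 342, 287 and 310.0 CPM to 499, 465 and 468 CPM (log2 fold change 0.61, SE 0.0962, edgeR adjusted p 0.000193), and Hmox1, heme oxygenase 1, from 1640, 2324 and 2249 CPM to 3220, 2599 and 3479 CPM, a rise of 0.58 that was not called without FcMR 12 h replicate 1 or FcMR 24 h replicate 1 or 3. Keap1, the inhibitor of NRF2, had −1.15 (−0.63 after GC correction) and Sqstm1 −0.60 (−0.10 from the authors' normalized values), and both calls were lost without FcMR 12 h replicate 2 or 3 and without FcMR 24 h replicate 1 or 2. Of 23 genes of the ATF4 and unfolded protein response, 11 were called lower and 0 higher, against 12.6% and 11.2% of all genes. Their median was −0.26. Slc7a5, a transporter of large amino acids, went from 17.2, 22 and 20.6 CPM to 7.71, 6.06 and 8.53 CPM (log2 fold change −1.44, SE 0.17, edgeR adjusted p 1.05e-05). Herpud1 and Hspa5, of the endoplasmic reticulum, fell by 0.94 and 0.76. Without FcMR 12 h replicate 2 or FcMR 24 h replicate 2, 7 of these genes were called lower, and 5 in the fit of the 6 libraries alone.

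Costimulatory and antigen presentation genes were lower, with 11 of 20 called lower and 1 higher, against 12.6% and 11.2% of all genes. The list median was −0.53. In the fit of the 6 libraries alone 4 were called lower and 0 higher. Without FcMR 12 h replicate 2 or 3 or FcMR 24 h replicate 1, 8 were called lower. Cd40, the receptor through which T cells license antigen-presenting cells, went from 546, 737 and 660.2 CPM to 123, 122 and 157 CPM, a 4.85-fold drop (log2 fold change −2.28, SE 0.20, edgeR adjusted p 3.63e-07). Icosl, a costimulatory ligand, went from 70.6, 67.0 and 61.0 CPM to 18.2, 18.4 and 16.1 CPM, a drop of 1.91. Ciita, the master regulator of class II genes, fell by 1.59, and the class II genes Cd74 and H2-Ab1 by 0.84 and 0.80. Cd86, Cd80 and Cd83 did not pass, with −0.32, 0.16 and 0.28. Ctss, the protease that trims the invariant chain, rose by 0.32. In the alternative activation list 5 of 18 were called lower and 1 higher, against 12.6% and 11.2% of all genes. Ccl24, an eosinophil attractant, fell by 2.36 (−1.25 and not called after thinning), and Fn1, fibronectin, went from 248, 317 and 320.1 CPM to 94.7, 79.2 and 121 CPM, while Clec7a, the beta-glucan receptor dectin-1, went from 1167, 937 and 921 CPM to 2131, 2599 and 1935 CPM, a rise of 1.14.

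Receptors for microbes, antibodies and debris changed individually, with 5 of 29 called higher and 9 lower, against 11.2% and 12.6% of all genes. Clec4d, a partner of Clec4e in sensing mycobacterial lipid, went from 455, 355 and 379 CPM to 893, 1071 and 822 CPM (log2 fold change 1.23, SE 0.11, edgeR adjusted p 7.94e-07), and Fcgr3, an activating Fc receptor, from 216, 167 and 165 CPM to 414, 355 and 363 CPM. Nod1, a cytosolic peptidoglycan sensor, fell by 1.64 and Axl, a receptor for apoptotic cells, by 0.81 (−0.47 from the authors' normalized values). FcMR carries an Fc region; of the other Fc receptor genes Fcgr2b rose by 0.48, Fcgr1 fell by 0.42 and Fcgr4, with −0.05, did not pass. Lysosome and proton pump genes gave 4 higher and 3 lower of 30, near the 11.2% and 12.6% of all genes, and 2 higher without FcMR 12 h replicate 3 or FcMR 24 h replicate 1. Gusb rose by 0.44, from 258, 245 and 258 CPM to 342, 339 and 351 CPM, and Atp6v0a1, a proton pump subunit, fell by 0.42. Without FcMR 12 h replicate 1, 8 receptor genes were called higher and 6 lysosome genes lower.

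Genes of migration and matrix contained some of the larger rises outside metabolism. Of 28 chemokine receptor, integrin and migration genes, 8 were called higher and 6 lower, against 11.2% and 12.6% of all genes. Besides S1pr1, Ccr1 went from 138, 96.7 and 85.3 CPM to 269, 308 and 224 CPM, and Cxcr4, the receptor for CXCL12, from 67.1, 59.1 and 56.4 CPM to 156, 139.5 and 162 CPM. They rose by 1.33 and 1.32. Cx3cr1 and Itgam rose by 1.23 and 1.10. Icam1, the adhesion ligand induced by NF-kB, fell by 1.34. Ccr2, the receptor for Ccl2, did not pass (log2 fold change −0.16, SE 0.36, edgeR adjusted p 0.777).

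Of 30 matrix, coagulation and secreted defence genes, 10 were called higher and 6 lower, against 11.2% and 12.6% of all genes. Thbs1, thrombospondin 1, went from 216, 221 and 216 CPM to 1124, 1030 and 1079 CPM, a 4.96-fold rise with little spread (log2 fold change 2.31, SE 0.11, edgeR adjusted p 2.07e-10). Mmp8, neutrophil collagenase, rose by 1.52. Mmp13, interstitial collagenase, moved the other way, from 687, 558 and 522 CPM to 174, 222 and 117 CPM (log2 fold change −1.78, SE 0.18, edgeR adjusted p 1.86e-06). Complement genes C3 and Cfb rose by 0.46 and 0.40, and the acute-phase gene Saa3 by 0.63. Without FcMR 12 h replicate 2 or without FcMR 24 h replicate 3, 5 genes of this list were called higher, and without FcMR 24 h replicate 1 it was 6. Without FcMR 24 h replicate 3, 11 were called lower. In the fit of the 6 libraries alone 2 were called higher and 2 lower. Timp3, with under 1 CPM in every library of the 6, had −1.58, not called without FcMR 24 h replicate 2.

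Cell cycle genes changed little as a group. Of 30 DNA replication genes 1 was called higher and 3 lower, and of 30 mitosis genes 1 higher and 2 lower, fewer than the background of 23.8% of genes called in either direction. Medians were −0.04 and 0.07. Mki67, a marker of cycling cells, went from 113, 84.1 and 85.6 CPM to 51.7, 66.6 and 39.9 CPM (log2 fold change −0.83, SE 0.24, edgeR adjusted p 0.0181), and its edgeR adjusted p was 0.065, 0.0668 and 0.0722 without FcMR 12 h replicate 1, FcMR 24 h replicate 1 and FcMR 24 h replicate 3. The call was also lost in the fit of the 6 libraries alone and after thinning. Tyms, thymidylate synthase, fell by 0.95 and Cenpa, the centromeric histone, rose by 1.02. The call for Uhrf1 (−1.02) was lost without FcMR 12 h replicate 2 or 3 and without FcMR 24 h replicate 1 or 2, as was that for Pola1 (0.59), and that for Tpx2 (−0.86) without FcMR 12 h replicate 1. Of the 7 called genes 6 had a promoter in the table. TTTGAA or TTCGAA, the element of late cell cycle genes, stood in 3 of these, CCAAT in 5, and TTTCGCGC or TTTGGCGC, bound by E2F, in 2, against 21.7%, 41.1% and 0.929% of all genes.

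Genes of the circadian clock gave 6 called higher and 0 lower of 19, against 11.2% and 12.6% of all genes, with a median of 0.32 (0.15 without FcMR 12 h replicate 1). Per2, a repressor of the clock, went from 4.04, 6.11 and 6.17 CPM to 15.1, 11.9 and 16 CPM (log2 fold change 1.38, SE 0.20, edgeR adjusted p 6.60e-05). Nfil3, which also shapes myeloid gene expression, went from 22.6, 22.5 and 22.6 CPM to 51.8, 46.2 and 46.1 CPM, a rise of 1.09, and Cry1 rose by 1.05. Clock and Arntl, the core activators, had 0.02 and 0.13 and did not pass. The 12 h and 24 h groups differ in time since treatment, and the hour of harvest is not given in the sources used here.

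Markers of other marrow cells moved with time. Macrophage markers were high throughout, with all 8 detected and a summed level of 19732 to 23212 CPM in the 12 h and 25206 to 26985 CPM in the 24 h libraries, most of it Lyz2. The 10 neutrophil markers summed to 316 to 539 CPM at 12 h and 206 to 229 CPM at 24 h, against 1415 to 1639 CPM in untreated cells. Of the 10, 7 were called lower and 0 higher, against 12.6% and 11.2% of all genes (3 lower without FcMR 24 h replicate 2). Among the 7 were S100a9, from 210.3, 112 and 141 CPM to 69.6, 58.2 and 53.9 CPM, and Ngp. Elane, neutrophil elastase, had 7, 3 and 3 counts at 12 h and 0 in each library of 24 h, and the 95% interval of its 12 h to 24 h ratio starts at 3.02 (counting error only). Mpo had 15 counts in all at 12 h and 1 at 24 h. Eosinophil markers summed to 209.9 to 315 CPM and then 60.6 to 88.8 CPM, with 3 of 4 called lower, among them Epx (−2.94) and Prg2 (−1.67). Those of mast cells and basophils went from 13.8 to 21.6 CPM to between 8.04 and 14 CPM.

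Markers of T and B cells were near absent. The 5 T cell markers summed to 1.69 to 3.06 CPM at 12 h and 1.71 to 2.56 CPM at 24 h. The 5 B cell markers summed to at most 5.93 CPM. All 8 dendritic cell markers passed the filter, with 1 called higher and 1 lower, against 11.2% and 12.6% of all genes. Whether dendritic cells were present was not tested. Of 4 NK cell markers 2 passed, with 1 called higher (0 in the fit of the 6 libraries alone). Of 4 erythroid markers 2 passed, with 0 called. Fibroblast markers summed to 1.84 to 2.57 and 3.07 to 4.40 CPM, with Dcn called higher. In such mixed cultures fewer cells of a type and less RNA per cell cannot be told apart. Csf3 and Mmp8 are also genes of granulocytes or act on them, and the part of the granulocyte signal in their changes was not tested.

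**Figure D3:**
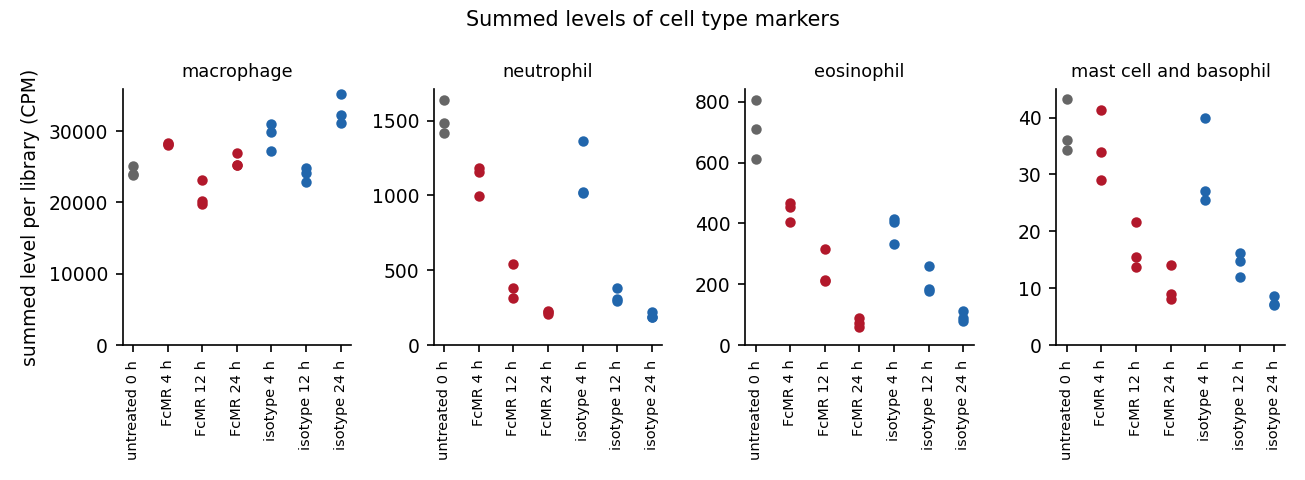
Summed CPM of the markers of 4 cell types in each of the 21 libraries, by group, from 0. In FcMR cells neutrophil, eosinophil and mast cell sums were lower at 24 h than at 12 h on average, and macrophage sums at 24 h, 25206 to 26985 CPM, lay above those at 12 h.

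The isotype cells, kept for the same times, show how much of the late change was shared. In them 2247 genes were called between 12 and 24 h (16.7%), 969 higher (7.19%) and 1278 lower (9.49%). This is fewer than in FcMR cells, but the order was reversed when each comparison was fitted from its own 6 libraries. Those fits called 5794 genes for isotype and 1046 for FcMR. The shares that follow come from the fit of all 21 libraries. Both comparisons called 1492 genes, 46.6% of the FcMR calls and 66.4% of the isotype calls, and 1472 of these went the same way, 630 up and 842 down. Interferon-stimulated genes had a median of −1.05 in isotype cells too, with 27 of 30 called lower, and NF-kB system genes −1.07. The cytokine list had −1.26 there, with 17 of 26 called lower and 0 higher. In isotype cells costimulation genes had −0.66 (15 called lower), sterol synthesis genes −0.37 (12) and ATF4 genes −0.41 (11). Of the 12 genes that fell most in FcMR cells, all but Csf3 (−0.69) were also called lower in isotype cells. Clic5, Hspa1b and Rnf225 had −4.79, −4.82 and −3.59 there. Of the 12 that rose most, all but C1s1, Gsta1, Hepacam2, Ctla2b and Vegfa were also called higher in isotype cells. The series holds untreated cells only at 0 h, so no cells kept untreated for 12 or 24 h could be compared. Within either comparison, effects of the protein and of the hours in culture cannot be told apart.

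The difference between the 2 time changes was tested directly. It was called for 233 genes (1.73%), and 1357 had an unadjusted p under 0.05. In 61 FcMR cells rose and isotype cells were not called, and in 40 FcMR cells fell and isotype cells were not called. In 41 isotype cells fell and in 22 they rose while FcMR cells were not called. The remaining 69 were called in both, 49 in the same and 20 in opposite directions. The count was 81 after thinning every library to the smallest total and 654 after GC correction.

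**Figure D4:**
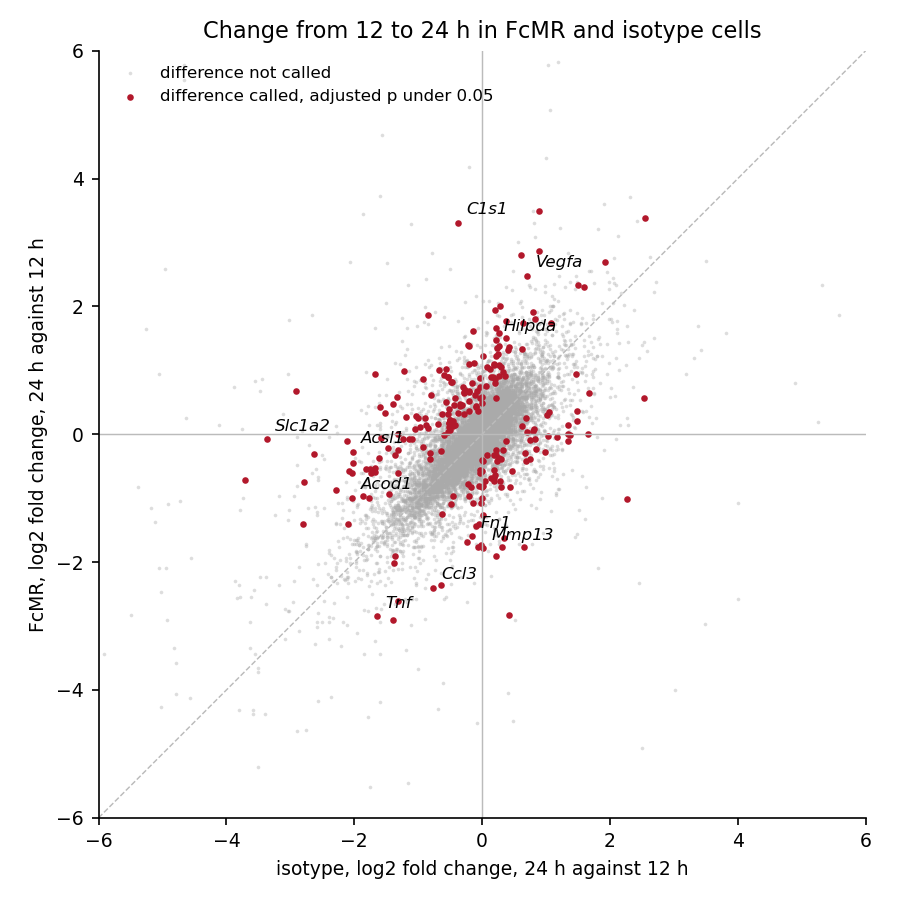
Log2 fold change from 12 to 24 h in isotype cells (x axis) and FcMR cells (y axis) for 13403 genes, with 65 beyond the axes left out. Red points are genes whose changes differed at an adjusted p under 0.05, and the dashed line marks equal change. Slc1a2 lies far to the left near 0 on the y axis, at −3.37 and −0.08, and C1s1 high near 0 on the x axis, at −0.38 and 3.31.

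The genes with the smallest p for this difference were held in FcMR cells or fell faster there. Acsl1, an acyl-CoA synthetase induced in inflammatory macrophages, was at 1480, 1327 and 1354 CPM and then at 1171, 1213 and 1068 CPM in FcMR cells, while in isotype cells it went from 473 ± 11.4 to 117 ± 2.50 CPM (mean ± SD, n = 3). The changes differed by 1.75 (SE 0.13, edgeR adjusted p 1.23e-06). The drop of Acsl1 in FcMR cells, by 0.27, was itself not called without any one of the 6 libraries. Slc1a2, a glutamate transporter, stayed at 106, 105 and 111 CPM and then 95.4, 118 and 90.0 CPM in FcMR cells. In isotype cells it went from 6.90 ± 0.791 to 0.652 ± 0.227 CPM, a difference of 3.29 (SE 0.27, edgeR adjusted p 4.40e-06). The isotype level at 24 h lay near the limit of detection, as 3 counts correspond to 0.314 to 0.405 CPM of the raw total in those libraries. Clec4e, the lectin Mincle, differed by 2.32 (SE 0.20, edgeR adjusted p 8.95e-06), with 4131 ± 699 and 3328 ± 762 CPM in FcMR cells and 1186 ± 88.5 and 191 ± 7.33 CPM in isotype cells at 12 and 24 h. Ccl3 went the other way (−1.63, SE 0.15, edgeR adjusted p 1.61e-05): it fell from 335 ± 45.3 to 63.2 ± 2.29 CPM in FcMR cells and from 104 ± 12.7 to 60.9 ± 1.18 CPM in isotype cells.

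Other differences touched the groups described. Acod1 fell by 0.99 in FcMR and by 2.03 in isotype cells, a difference of 1.04, and Slc7a2, an arginine transporter, differed by 1.15. Tnf fell further in FcMR cells, from a higher level, by 1.19. Vegfa (1.77), Hilpda (1.27), Scd1 (0.77), Abca1 (0.99), Cxcr4 (0.91) and Nfil3 (0.82) rose further in FcMR cells. C1s1 was at 3.06 ± 0.371 and 2.31 ± 0.672 CPM in isotype cells, and its changes differed by 3.69 (SE 0.41, edgeR adjusted p 0.000147). Mmp13 and Fn1 fell further in FcMR cells (−1.79 and −1.43), with Mmp13 at 383 ± 29.8 and 384 ± 30.4 CPM and Fn1 at 317 ± 20.6 and 285 ± 13.3 CPM in isotype cells. Genes that rose in isotype cells without a called rise in FcMR cells included Ctsl, a lysosomal protease (1.35 against 0.15, edgeR adjusted p of the difference 1.76e-05), Spp1, osteopontin (1.38 against −0.01), and C5ar1, the C5a receptor (1.35 against −0.10).

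Mitosis genes had 9 of 30 called higher in isotype cells and a median of 0.61 there, against 1 and 0.07 in FcMR cells, but the difference was called for 0 of the 30. In the isotype libraries their mean log2 CPM was 1.96 to 2.29 at 12 h and 2.35 to 2.94 at 24 h, and in the FcMR libraries 1.57 to 1.91 and 1.57 to 1.84. Among cytokines the difference was called for 8 of 26, and in both directions: Ccl2, Ccl3, Ccl4, Ccl7, Csf1 and Tnf had a lower change in FcMR cells, and Ccl22 and Il12a a higher one.

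**Figure D5:**
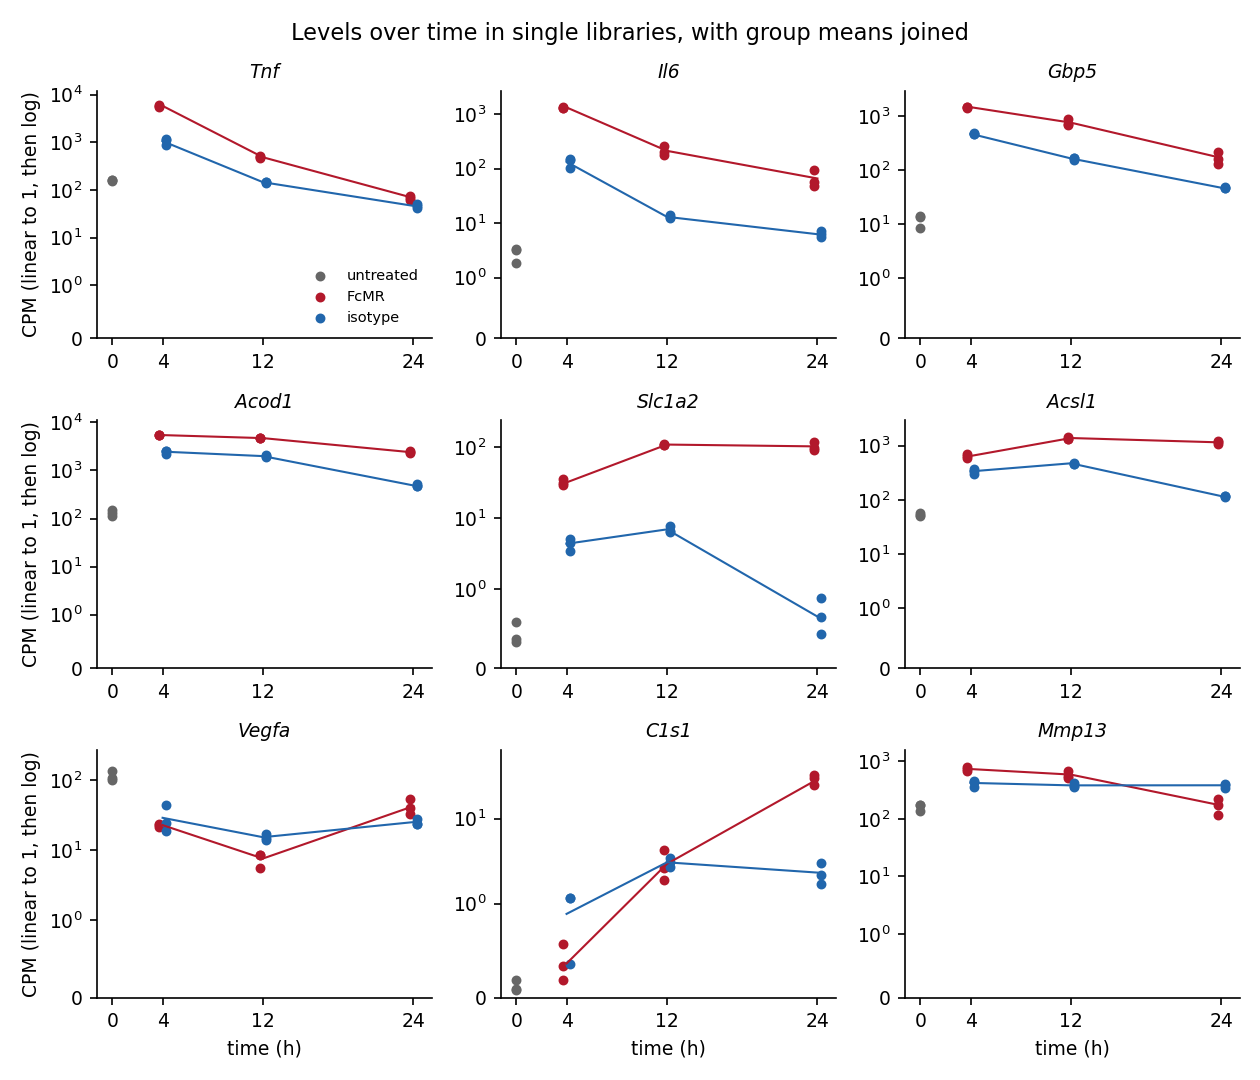
Levels of 9 genes in single libraries at 0, 4, 12 and 24 h (CPM, linear up to 1 and logarithmic above), with lines through the means of FcMR (red) and isotype (blue) groups and untreated cells in grey. Slc1a2 and Acsl1 stay near their 12 h level in FcMR cells and drop in isotype cells, C1s1 rises to 24.9 to 32.3 CPM in FcMR cells, and Tnf, Il6 and Gbp5 are lower at 24 h than at 12 h under both proteins.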

How the data were processed

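RNA was sequenced from 21 libraries, 3 in each of 7 groups, with a kit that does not mark strand. Per the submitters' processing notes, the authors used CASAVA 1.8.2, kallisto 0.44.0, DESeq2 and the builds mm10 and GRCm38. The deposited table of 23250 genes holds estimated counts as whole numbers, taken as deposited with no further rounding needed, and every gene sums to at least 10. A second table, normalized by the authors, holds a signal on a linear scale and was used only as an alternative (log2 of the value + 1).

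The counts of all 21 libraries were fitted with edgeR 4.0.16 in R 4.3.3 (TMM factors, filterByExpr with a minimum count of 10, quasi-likelihood test, Benjamini-Hochberg adjustment over 13468 genes, threshold 0.05). Contrasts were FcMR 24 h against 12 h, isotype 24 h against 12 h, and their difference. Alternatives used other size factors and filters, DESeq2 1.42.0, limma 3.58.1, GC correction (loess span 0.5), thinned counts, the 6 or 12 compared libraries alone, a replicate block and the omission of single libraries. Single counts are precise to counting error only.

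Named genes are the 12 called protein-coding genes that rose most and the 12 that fell most (mean log2 CPM not under 1, libraries of both times fully apart), up to 2 called members per list at the top and 2 at the bottom, 14 genes by name and the 4 genes of lowest p for the difference. Other genes printed were chosen from the lists after their values were seen. The comparison, lists and named genes were chosen with earlier results of these data known. Some listed genes are counted with their lists and not reported singly here.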

Additional observations from a re-analysis of the deposited data

Results flagged for a closer look

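These results stand here because the change from 12 to 24 h differed between FcMR and isotype cells by edgeR's test of the difference, which called 233 genes. Values are the FcMR minus the isotype log2 change. A higher change in FcMR cells was found for C1s1 (3.69), Slc1a2 (3.29), Clec4e (2.32), Ctla2b (2.20), Hepacam2 (1.98), Vegfa (1.77), Acsl1 (1.75), Egr1 (1.58), Hilpda (1.27), Acod1 (1.04), Fos (1.0), Mgst2 (0.84), Nfil3 (0.82), Ly6a (0.77), Scd1 (0.77) and Thbs1 (0.72). A lower change in FcMR cells was found for Mmp13 (−1.79), Ccl2 (−1.72), Ccl3 (−1.63), Fn1 (−1.43), Tnf (−1.19), Atp6v0a1 (−0.66) and Icosl (−0.54).

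The difference was called under all 23 settings run for Hilpda, Scd1, Fn1, Mmp13, Tnf, Acod1, Slc1a2, Acsl1, Clec4e and Ccl3. It was called under 4 settings for Icosl, 9 for Fos, 13 for Ly6a and Ctla2b and 14 for Hepacam2. For Slc1a2 the value ranged from 1.55 to 3.62. The difference for C1s1 was not called from the authors' normalized table, nor that for Vegfa and Egr1 after thinning.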

How the results depend on the processing

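The count of genes called between FcMR 12 h and 24 h was 1046 (597 higher, 449 lower) from the 6 libraries alone and 1479 (704 higher, 775 lower) after thinning to the smallest total. GC correction gave 2348 called higher, and 2414 with the replicate block. Omitting single libraries gave 1988 to 4276 calls, 982 to 1917 higher and 1006 to 2359 lower. Isotype calls were 5794 from the 6 isotype libraries alone, 3582 with GC correction, 3732 with GC correction and block, 1193 after thinning and 1401 to 1675 without single libraries. For the difference they were 154 without a filter, 363 with DESeq2, 654 with GC correction, 769 with GC correction and block, 81 after thinning, 138 from the authors' normalized table and 156 to 223 without single libraries. The cause was not tested, beyond fewer samples or counts where these were removed. Calls shared with the reported fit had the same direction under every setting.

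Of the calls, 46.9% were higher, and 57.1% in the fit of the 6 libraries alone. Among 91 called named genes 62 kept their call under every alternative. The fit of the 6 libraries alone lost 23 calls, thinning 19 and the authors' normalized values 11, while GC correction and the block lost 0. Genes that changed sign were not called in the reported fit: Ptprc (−0.09) ranged from −0.21 to 0.09 and Slc1a2 (−0.08) from −0.18 to 0.01 without single libraries, and Ccr2 (−0.16) from −0.37 to 0.30, with 0.09 after thinning. After GC correction Ptprc was called lower (−0.15, edgeR adjusted p 0.0463). Same-numbered libraries deviated with correlations of −0.037, −0.355 and 0.442. No label says that they share a mouse, batch or day. Differently numbered libraries ranged from −0.51 to 0.573, so the correlations cannot decide whether same-numbered libraries are paired. With the replicate block for pairing, 3420 genes were called for FcMR, 2438 for isotype and 285 for the difference. Depth limits low genes such as Csf3, Lipg, Elane and Csf2.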
